A study of Mus musculus with 5 samples.

Results

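The mouse genes whose symbols begin with Kcn encode the subunits of potassium channels, and 30 of the 94 protein-coding Kcn genes in a table of 55573 genes were read often enough in Neuro-2A (N2A) cells to be followed here. The 30 were chosen by symbol, by gene type and by a sum of at least 100 raw reads over the 5 libraries. N2A is an established line of mouse neuroblastoma cells that divides in culture and keeps part of the gene expression of sympathetic neurons. The cells were transfected with 60 pmol of a commercial negative-control siRNA (siCtl, n = 2 libraries, replicates 1 and 3) or with 60 pmol of an siRNA against Upf1 (siUpf1, n = 3 libraries, replicates 1, 2 and 3), using the same reagent in both groups. Poly(A)+ RNA was sequenced with a strand-specific kit. All 5 libraries came from the same line, no labels state a time of harvest, and the labels do not say whether the replicates were separate cultures, so the p-values below measure the spread between these libraries, which may be technical.

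Potassium channels let potassium leave the cell down its gradient. By doing so they hold the resting membrane potential, end the action potential and set how often a neuron can fire. The pore is built by voltage-gated (Kv), calcium-activated, inward rectifier (Kir) or tandem-pore (K2P) subunits, and auxiliary subunits adjust where the channels sit and how fast they open and close. UPF1 is the RNA helicase at the center of nonsense-mediated mRNA decay (NMD), which degrades mRNAs whose stop codon lies in an unusual context, such as well upstream of an exon junction, before an unusually long 3′ untranslated region (3′ UTR), or in a short reading frame ahead of the main one. The comparison of siUpf1 with siCtl libraries therefore asks which channel mRNAs change in amount when UPF1 is reduced.

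The sequences of the knockdown reagent are shown because either strand of an siRNA can also act on other mRNAs through its seed, bases 2 to 8, given here in capitals.

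Upf1 siRNA, sense strand: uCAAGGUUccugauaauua

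Upf1 siRNA, antisense strand: uAAUUAUCaggaaccuuga

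The 7-mer complementary to the sense-strand seed, AACCTTG, was found in the 3′ UTR of 2 of the 30 genes, and the 7-mer complementary to the antisense-strand seed, GATAATT, in none. The 2 sites follow with 8 bases of 3′ UTR on either side and the 7-mer in capitals, each on the minus strand of GRCm38.

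Kcnj9, chr1:172322149-172322171: aggaatgaAACCTTGcaggtcct

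Kcnh7, chr2:62699331-62699353: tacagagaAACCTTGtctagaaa

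The sites begin at base 700 of the Kcnj9 3′ UTR and base 3601 of the Kcnh7 3′ UTR. Only the sense strand of each mRNA was searched, and neither site overlaps the other 7-mer. Among the 11998 protein-coding genes tested that met the same sum of reads and had an annotated transcript, 10% held AACCTTG and 7.8% held GATAATT. The median log2 fold change of these genes was −0.11 with the sense-seed match and −0.01 without it. For the antisense-seed match the medians were 0.00 and −0.02. Another 7-mer, GCAGTAC, which matches neither seed of the Upf1 siRNA, was also counted, and it was chosen with earlier results of these data known. The sequence of the control siRNA is not given here, so GCAGTAC cannot be taken as unrelated to both reagents. It was held by 5.2% of these genes and by 1 of the 30 channel genes. Medians were 0.24 with GCAGTAC and −0.03 without it, a wider gap than for either seed match. The source of that gap was not tested. The 2 channel genes with the sense-seed match moved in opposite directions, Kcnh7 higher and Kcnj9 lower in siUpf1 libraries. A match is a description of the letters and does not show that a site was used.

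The libraries held 20402205 to 27717594 assigned reads each. Upf1 (ENSMUSG00000058301.8) had 5217 and 5243 normalized reads in the siCtl libraries and 2403, 2496 and 2449 in the siUpf1 libraries, which left 0.468 of the control level (log2 −1.10, SE 0.05, DESeq2 adjusted p = 7.09e-101). All 10 neural and neuroblastoma markers were detected, and their summed level was 1692 to 1719 CPM (reads scaled to the same library total) in siCtl libraries and 1911 to 1978 CPM in siUpf1 libraries, with 5 markers higher and 2 lower. Summed markers of fibroblasts (4 genes) were at 11.5 to 12.1 CPM against 8.72 to 10.4 CPM, of glia (4 genes, Mog at 0) at 15.2 to 16.6 CPM against 18.2 to 19.4 CPM, and of immune cells (4 genes) at 1.49 to 1.58 CPM against 1.23 to 1.43 CPM. Nearly all of the glial sum was Mbp, at 14.7 and 16.4 CPM against 18.7, 18.9 and 17.8 CPM, and no glial marker was called. The summed level of the neural markers was higher in siUpf1 libraries, as were the summed channel reads described next, although the single markers moved both ways. The part of these markers in the channel results was not tested. In bulk RNA of this kind, fewer cells of a given state and less RNA per cell cannot be told apart.

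The summed reads of the potassium channel genes were higher after Upf1 knockdown. Reads of the 30 genes were 0.0461% of all assigned reads in both siCtl libraries and 0.0633%, 0.0614% and 0.0620% in the siUpf1 libraries, so the groups did not overlap. This sum weighs genes with many reads most and does not mean that every gene rose. In raw reads it was 11151 and 12264 in siCtl libraries and 17305, 12520 and 17177 in siUpf1 libraries. Kcnk3 alone gave 899 and 989 of these in siCtl libraries and 2241, 1650 and 2311 in siUpf1 libraries. Of the 30 genes, 14 were higher in siUpf1 libraries, 5 were lower and 11 were not called, where a call is a DESeq2 adjusted p under 0.05 over all 15191 genes tested. The knockdown moved much of the transcriptome: 44.9% of all genes tested were called, 22% higher and 22.9% lower. Among the 12017 protein-coding genes that met the same sum of reads, 25.9% were higher and 28% lower. The channel genes thus stood at 46.7% higher and 16.7% lower, and their median log2 fold change was 0.44, against −0.00 for all genes tested and −0.02 for the protein-coding genes with the same sum. These counts describe the list and are not a test of it, because a gene near the threshold could enter through high siUpf1 reads alone.

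The values at the threshold show how that can happen. Just inside it, Kcna4 had 8 and 9 raw reads in siCtl libraries and 32, 21 and 31 in siUpf1 libraries. Kcnh7, with a sum of 123, had 14 and 9 reads against 46, 22 and 32. Both genes owed most of their reads to the siUpf1 libraries. Just outside, Kcnh3 had 18 and 11 against 26, 21 and 12 reads, a sum of 88, and Kcnk6 had 20 and 26 against 11, 17 and 11, a sum of 85. Of the 64 Kcn genes below the threshold, 24 had no read in any library and 40 had between 1 and 88, and none of the 6 that DESeq2 tested was called.

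Of the 30 genes, 4 were higher by at least 1 log2 unit (Kcna4, Kcnh7, Kcnj12 and Kcnk3) and none was lower by that much. Kcna4 and Kcnh7 passed the threshold mostly through their siUpf1 reads, so this count depends in part on how the genes were chosen. In all, 2.79% of the genes tested were higher by at least 1 log2 unit. The values of the 2 groups did not overlap for 27 of the 30 genes, 20 of them higher and 7 lower in siUpf1 libraries, and overlapped for Kcnk4, Kcnk5 and Kcnn1. The same separation was seen for 69.4% of all genes tested, and for 9104 of the 12017 protein-coding genes with the same sum of reads.

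**Figure D1:**
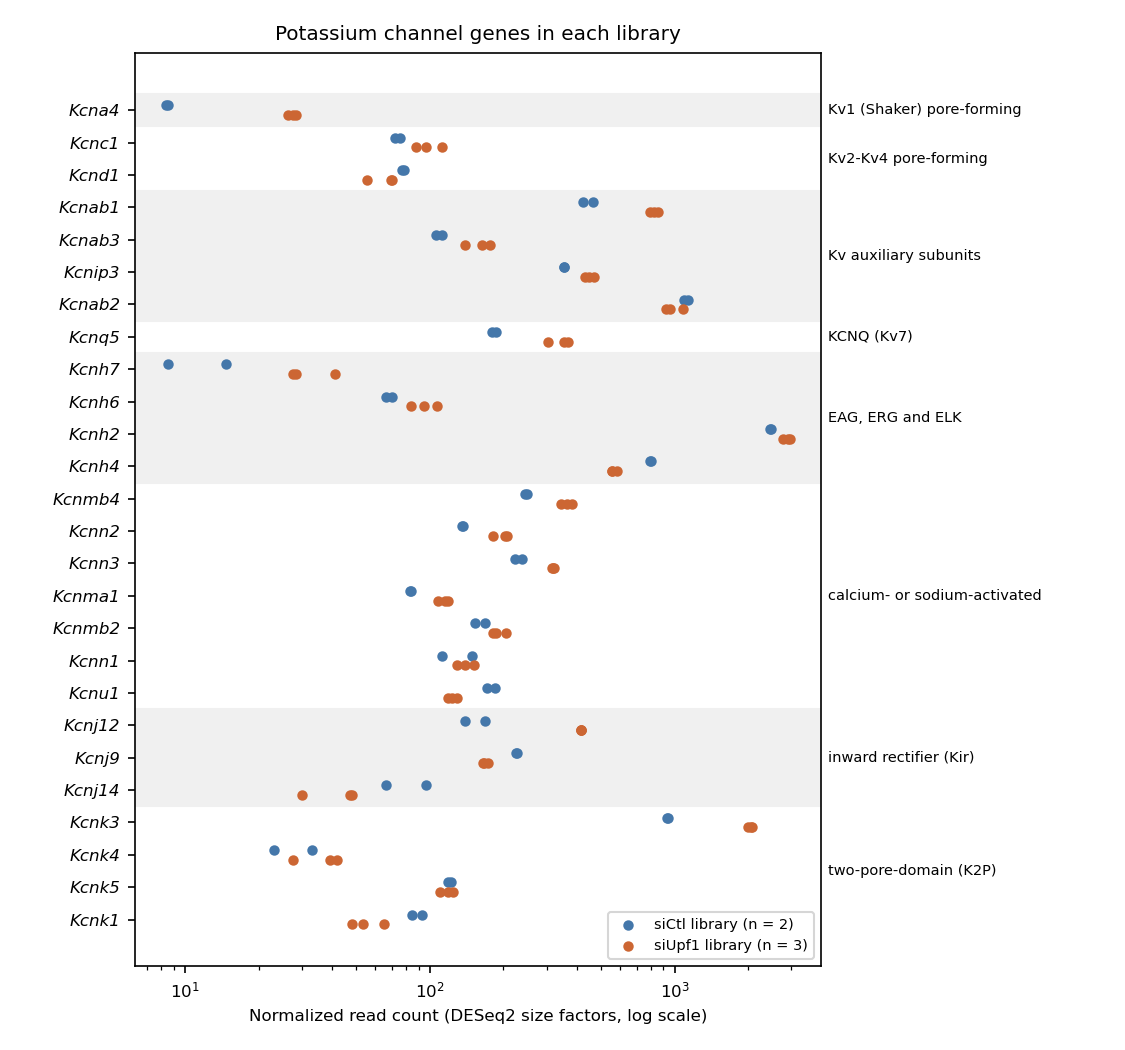
Normalized read count of 26 potassium channel genes (rows, ordered by family) in each library on a log axis; blue points are the 2 siCtl libraries and orange points the 3 siUpf1 libraries. The points of Kcnk3 and Kcnj12 are far apart between the groups, those of Kcnh4 are reversed, and those of Kcnk4, Kcnk5 and Kcnn1 overlap.

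Each library was left out in turn, and 9 of the 19 called genes kept their call whichever it was (among them Kcnk3, Kcnj12, Kcnab1, Kcnq5, Kcnmb4 and Kcnh2 higher, and Kcnh4 lower), and 10 lost it at least once. Without siCtl replicate 1, 10 genes were higher and 2 lower. Without siCtl replicate 3, 8 were higher and 1 lower. Without siUpf1 replicate 1, 2 or 3 the counts were 11 and 2, 11 and 4, and 13 and 2. Leaving out a siCtl library leaves 1, which DESeq2 then takes to vary like the others. None of the 19 changed direction. edgeR's quasi-likelihood test called 18 genes higher and 6 lower, adding Kcnc1, Kcnh6 and Kcnma1, among others, above and Kcnab2 below.

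Among the pore-forming subunits of the Shaker family (Kv1), Kcna4 was the only one of 8 genes with enough reads. It encodes an A-type channel that inactivates quickly. At chr2:107290639-107298502 (plus strand), it had 8.39 and 8.49 normalized reads in siCtl libraries and 28.5, 26.4 and 27.6 in siUpf1 libraries. The groups did not overlap, and the log2 fold change was 1.71 (SE 0.57, adjusted p = 0.00787), from a handful of reads. The call was lost without siCtl replicate 1 (adjusted p = 0.0755), and without siCtl replicate 3 the gene fell below DESeq2's filter on low counts and received no adjusted p. Of the other 7 Shaker genes, 6 had no read in any library and Kcna7 had 42 in all.

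Of the genes for Kv3 and Kv4 pores, Kcnc1, whose Kv3 channel opens at strong depolarization and repolarizes fast-spiking neurons, had an estimate of 0.42 (95% interval −0.08 to 0.92) that was not called (adjusted p = 0.173). Kcnd1, a Kv4 gene, had an estimate of −0.25 (95% interval −0.80 to 0.29, adjusted p = 0.497). None of the 10 genes for electrically silent Kv modifiers, which form channels only with Kv2 subunits, reached the sum of 100.

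Among 12 genes for auxiliary subunits of Kv channels, 4 passed the threshold, and 3 of these were higher. Kcnab1, Kcnab2 and Kcnab3 encode the cytoplasmic beta subunits, which resemble oxidoreductases and speed inactivation of some Kv1 channels. Kcnab1 had 466 and 424 normalized reads in siCtl libraries and 795, 860 and 822 in siUpf1 libraries. That was a log2 fold change of 0.89 (SE 0.10, adjusted p = 1.25e-17), with no overlap. Kcnab3 had 112 and 106 against 177, 163 and 140, for 0.56 (SE 0.21, adjusted p = 0.0190). Its call was lost without either siCtl library and without siUpf1 replicate 1 or 2, with adjusted p between 0.0712 and 0.177. Kcnab2, the most abundant of the auxiliary genes, went the other way, with 1096 and 1134 against 955, 1087 and 920 normalized reads. Its log2 fold change of −0.18 (SE 0.09) was not called (adjusted p = 0.0815), although it was called by edgeR and without siUpf1 replicate 2 (adjusted p = 0.0210). Kcnip3, a calcium-binding protein that accompanies Kv4 channels and can also repress transcription, was higher by 0.34 (SE 0.12, adjusted p = 0.0123), a call lost without each library in turn except siUpf1 replicate 3 (adjusted p 0.0523 to 0.116). Part of the Kcnab2 count is uncertain, since 125 exonic bases are shared with Gm16334 on the same strand.

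The KCNQ (Kv7) channels carry the M-current, a slow potassium current that restrains repetitive firing. Kcnq5 had 179 and 187 normalized reads in siCtl libraries and 366, 304 and 354 in siUpf1 libraries. All 3 siUpf1 values lay above both siCtl values, and the log2 fold change was 0.90 (SE 0.15, adjusted p = 2.34e-08), or 1.87-fold. Kcnq3, whose product forms M-channels together with other KCNQ subunits, had 5 reads over all libraries.

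The EAG, ERG and ELK channels included the most abundant channel mRNA. Of 8 genes, 4 were members, with 2 higher, 1 lower and 1 not called. Kcnh2 encodes the ERG channel that repolarizes the heart and is also found in neuroblastoma lines. It had 2467 and 2459 normalized reads in siCtl libraries and 2900, 2964 and 2766 in siUpf1 libraries. The gap was small but complete, with a log2 fold change of 0.22 (SE 0.06, adjusted p = 3.52e-04). Kcnh4 (chr11:100740376-100759942, minus strand), an ELK channel gene, had 798 and 804 normalized reads against 553, 581 and 556. It fell by 0.51 on the log2 scale (SE 0.09, adjusted p = 4.97e-07), to 0.703 of the control level. The other ERG genes were Kcnh6, with an estimate of 0.48 that was not called (adjusted p = 0.130), and Kcnh7, with 14.7 and 8.49 against 40.9, 27.6 and 28.5 normalized reads. Kcnh7 was higher by 1.50 (SE 0.53, adjusted p = 0.0119). Its call was lost without siUpf1 replicate 1 (adjusted p = 0.111), and it received no adjusted p without siCtl replicate 3.

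The group named calcium- or sodium-activated supplied 7 members out of 12 genes, of which 3 were higher, 1 was lower and 3 were not called. It takes in beta subunits and the sperm channel gene Kcnu1, so the name does not describe every member. The SK channels couple calcium entry to the afterhyperpolarization. Kcnn2 had 136 and 136 normalized reads in siCtl libraries and 181, 207 and 203 in siUpf1 libraries, a log2 fold change of 0.53 (SE 0.18, adjusted p = 0.00969) whose call was lost without each library except siUpf1 replicate 1 (adjusted p 0.0570 to 0.105). Kcnn3 was higher by 0.47 (SE 0.14, adjusted p = 0.00294), a call lost without siCtl replicate 3 (adjusted p = 0.0955). Kcnn1, the remaining SK gene, had overlapping groups and an estimate of 0.10 (95% interval −0.31 to 0.52). The large-conductance BK channel is formed by Kcnma1, with an estimate of 0.45 that was not called (adjusted p = 0.104), and beta subunits that shift its calcium and voltage sensitivity. Kcnmb4, the beta subunit typical of neurons, had 249 and 245 against 344, 382 and 365 normalized reads. It was higher by 0.55 (SE 0.14, adjusted p = 2.05e-04), and its groups did not overlap. Kcnmb2 had an estimate of 0.25 (adjusted p = 0.265). Kcnu1, which encodes the sperm channel SLO3, had 186 and 171 against 124, 129 and 119 normalized reads. It fell by 0.53 (SE 0.19, adjusted p = 0.0164), a call lost without each library except siUpf1 replicate 2 (adjusted p 0.0613 to 0.194).

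The 3 inward rectifiers of 15 Kir genes were all called, 1 higher and 2 lower. Kcnj12 (chr11:61022564-61071131, plus strand) encodes a strong inward rectifier that stabilizes the resting potential. It had 139 and 168 normalized reads in siCtl libraries and 414, 414 and 415 in siUpf1 libraries. Its log2 fold change of 1.43 (SE 0.15, adjusted p = 8.00e-21) was the largest among channel genes with a mean of at least 100 normalized reads. Kcnj14, of the same Kir2 subfamily, had an estimate in the opposite direction of −0.94 (SE 0.33, adjusted p = 0.0112). Its siCtl libraries were unequal, at 66.0 and 96.2 normalized reads, and its call was lost without siCtl replicate 3 (adjusted p = 0.325) or siUpf1 replicate 2 (adjusted p = 0.0754). A sense-seed match is held by Kcnj9, as it is by Kcnh7, which was higher. Kcnj9, a subunit of G-protein-gated channels, fell by 0.42 (SE 0.17, adjusted p = 0.0292). Its 5 values were tight within groups, at 225 and 226 against 173, 166 and 167, yet leaving out any 1 of the 5 libraries removed the call (adjusted p 0.0723 to 0.187). Kcnj6, another G-protein-gated subunit, had a sum of 76 reads and was not a member.

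The K2P channels carry the background leak that sets the resting potential, and 4 of their 14 genes passed, with 1 higher, 1 lower and 2 not called. Kcnk3 (chr5:30588170-30625271, plus strand), an acid-sensitive leak channel, had 942 and 933 normalized reads in siCtl libraries and 1993, 2071 and 2060 in siUpf1 libraries. The 2 groups were narrow and wide apart, with a log2 fold change of 1.12 (SE 0.07, adjusted p = 3.28e-57), or 2.18-fold, the smallest adjusted p among the 30 genes. Kcnk1, a weakly conducting K2P subunit, had an estimate of −0.69 (SE 0.28, adjusted p = 0.0341), and of the 5 libraries only siUpf1 replicate 2 could be left out without losing the call. Kcnk5, an alkaline-activated leak channel, had an estimate of −0.04 (95% interval −0.46 to 0.38). Kcnk4, opened by stretch and lipids, had an estimate of 0.38 (95% interval −0.45 to 1.20), and 587 of its exonic bases are shared with Catsperz on the same strand.

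**Figure D2:**
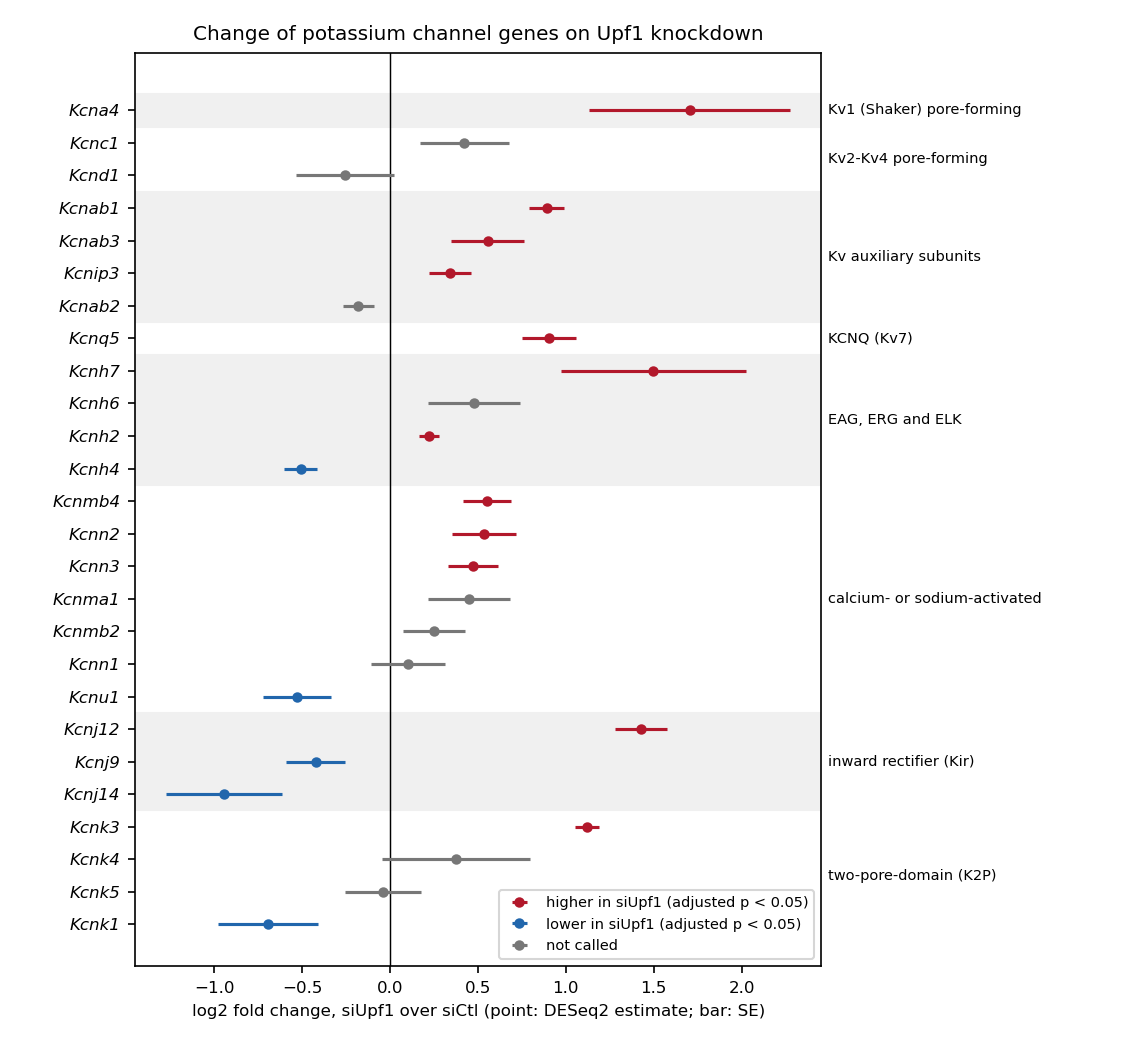
Log2 fold change of siUpf1 over siCtl for 26 potassium channel genes, grouped by family; points are DESeq2 estimates and bars 1 SE, red for higher, blue for lower and gray for not called. Estimates run from −0.94 (Kcnj14) to 1.71 (Kcna4), and the wide bars of Kcna4 and Kcnh7 reflect their few reads.

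**Figure D3:**
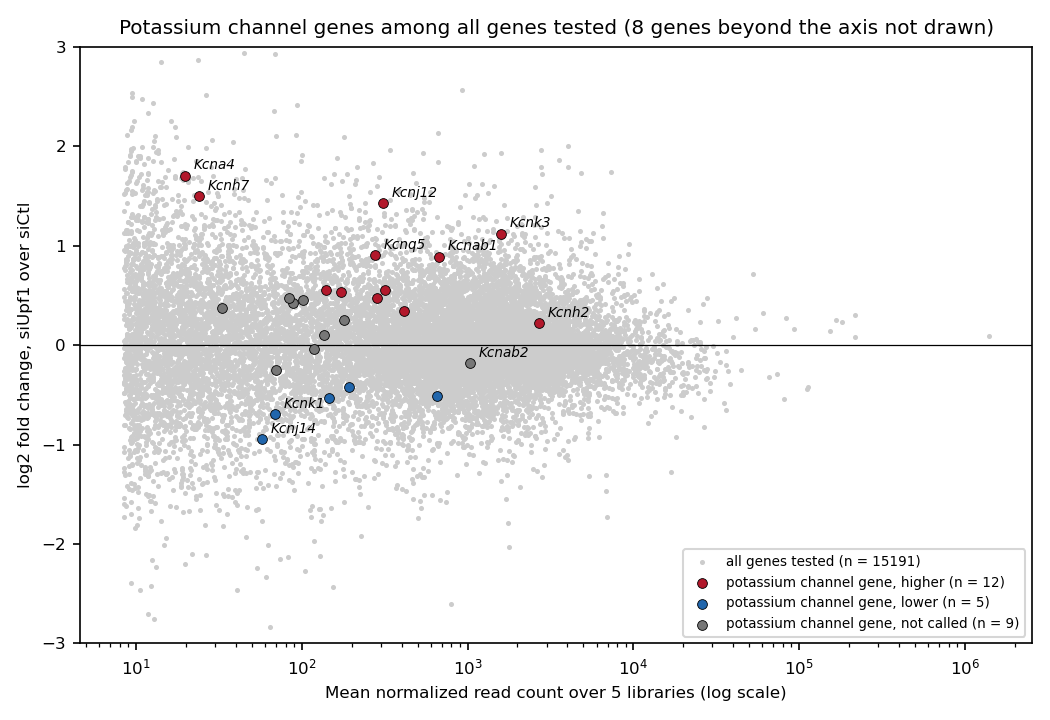
Log2 fold change (siUpf1 over siCtl) against the mean normalized read count (log axis) for all 15191 genes tested (small gray points) with 26 potassium channel genes drawn larger by call. Channel genes sit mostly above 0 across the range of levels, with 12 of those drawn called higher and 5 lower.

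To compare genes with each other, raw reads were divided by exonic length and by the assigned reads of the library (RPKM). The exonic length joins all annotated exons, so genes with long, rarely used exons, such as Kcnma1 with 16976 nt, are understated. On this scale Kcnh2 was the highest channel gene in both groups, at 20.1 ± 0.118 RPKM (S.D., n = 2) in siCtl libraries and 23.9 ± 0.755 RPKM (S.D., n = 3) in siUpf1 libraries. Kcnk3 was second in both, at 9.35 ± 0.0102 RPKM and 20.6 ± 0.316 RPKM. The order below them changed: Kcnh4 went from rank 3 to rank 6, with 8.03 ± 0.108 against 5.73 ± 0.0311 RPKM, and Kcnj12 from rank 10 to rank 5, with 2.22 ± 0.308 against 6.06 ± 0.158 RPKM. Kcnab2 was at rank 4 in both groups, with 7.92 ± 0.253 against 7.11 ± 0.471 RPKM.

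The make-up of the summed channel RPKM moved accordingly. Kcnk3 made up 11.0% ± 0.0942 (S.D., n = 2) of it in siCtl libraries and 18.6% ± 0.418 (S.D., n = 3) in siUpf1 libraries. The share of Kcnh4 was 9.47% ± 0.0366 against 5.15% ± 0.0594, and that of Kcnh2 was 23.8% ± 0.0902 against 21.5% ± 0.432, a smaller share at a higher level. By family, the K2P genes went from 14.8% ± 0.0627 to 21.0% ± 0.430 and the EAG, ERG and ELK genes from 34.2% ± 0.0333 to 27.7% ± 0.423. Shares add to a fixed total, so that a larger share of Kcnk3 lowers the others, and no test was run on them.

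**Figure D4:**
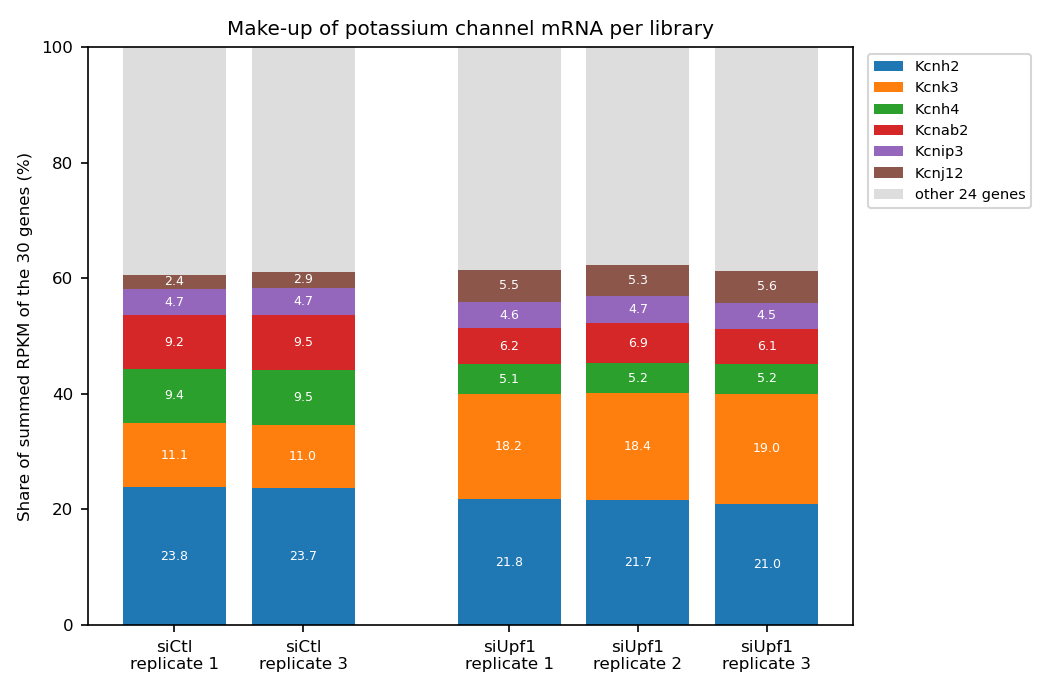
Share of the summed RPKM of the 30 potassium channel genes (percent, bars stacked to the full height) in each library for 6 genes, with the other 24 genes in light gray. The Kcnk3 block is 11.1% and 11.0% in the 2 siCtl libraries and 18.2% to 19.0% in the 3 siUpf1 libraries, while the Kcnh4 block shrinks from above 9% to near 5%.

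Features of the transcripts had no part in the choice of genes. They are given here beside those of all protein-coding genes with the same sum of reads, with no test of the differences. The channel genes' representative transcripts (GENCODE M21) had a median length of 3678.5 nt, against 3042.5 nt for those protein-coding genes. The median 3′ UTR was 1570.5 nt against 1007 nt, the median 5′ UTR 267.5 nt against 179 nt, and the median GC content 55.2% against 50.7%. An ATG upstream of the main reading frame was present in 25 of the 30 genes (83.3%), against 51.9% of all. Kcna4 had 18 such ATGs in a 5′ UTR of 1212 nt, Kcnn2 had 15 and Kcnj12 had 6. At least 1 was found in 12 of the 14 genes called higher, 3 of the 5 called lower and 10 of the 11 not called. Across the protein-coding genes with that sum the median log2 fold change was 0.01 with an upstream ATG and −0.05 without.

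Isoforms annotated as NMD substrates were listed for 6 of the 30 genes (20%), against 29.3% of the protein-coding genes with the same sum of reads. The 6 included Kcnq5, which was called higher, and Kcnh6, Kcnk4, Kcnma1 and Kcnn1, which were not called. An exon junction more than 50 nt after the stop codon was present in the representative transcript of Kcnh4 alone, a gene that was lower in siUpf1 libraries. Of the protein-coding genes with the same sum of reads, 48 (0.4%) had such a junction. The median log2 fold change of those protein-coding genes was −0.04 with the junction and −0.02 without it. Reads were counted per gene, so changes between isoforms of one gene were not measured. The protein-coding genes with that sum were divided by 3′ UTR length into 5 bins of near-equal size. The median log2 fold change was −0.12 in the bin of the shortest (up to 314 nt), then −0.06, −0.01 and 0.01. It was 0.10 in the bin of the longest (from 2418 nt). From the shortest bin to the longest, 14.6%, 21.5%, 25.3%, 29.5% and 38.6% of the genes in the bin were called higher. The channel genes numbered 1, 9, 3, 11 and 6 in these bins, of which 0, 5, 1, 3 and 5 were called higher and 1, 1, 2, 1 and 0 lower. The bin of 315 to 736 nt thus held as many channel genes called higher as the bin of the longest.

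Potassium channels depend on proteins that anchor them, regulate them or restore the potassium gradient. Of a list of 50 such genes, 40 were tested, with 12 higher, 7 lower and 21 not called, and a median log2 fold change of 0.08, beside 22% higher and 22.9% lower among all genes tested. Amigo1, a membrane protein that travels with Kv2 channels, was higher by 1.04 (SE 0.22, adjusted p = 8.40e-06), with 89.1 and 84.0 normalized reads against 197, 188 and 148. The 11 clustering and anchoring genes had 6 higher and none lower, among them Cntn2, a cell adhesion molecule that helps gather Kv1 channels beside nodes of Ranvier, at 0.78 (SE 0.17, adjusted p = 1.97e-05). Of the 6 sodium pump genes tested, 1 was higher and 3 lower. The pump's beta subunit gene Atp1b1 was at 0.99 (SE 0.11, adjusted p = 7.51e-18), while Atp1b3 was at −0.34 (SE 0.05, adjusted p = 4.61e-10) and Fxyd6, a small regulator of the pump, at −1.07 (SE 0.26, adjusted p = 1.76e-04). Among cation-chloride cotransporters, Slc12a5, the neuronal potassium-chloride exporter, was higher by 0.81 (SE 0.11, adjusted p = 1.65e-11), and Slc12a7 was at −0.34 (SE 0.13, adjusted p = 0.0196), a call lost without either siCtl library and without siUpf1 replicate 1 or 3. Tmem38b, a potassium channel of intracellular membranes, was at −0.75 (SE 0.17, adjusted p = 5.68e-05). Rest, the repressor of many neuronal channel genes outside neurons, was at −0.28 (SE 0.07, adjusted p = 6.78e-04), with its call lost without siCtl replicate 1 (adjusted p = 0.0907). The 2 cofactor genes listed with Rest were not called, and a part of Rest in the channel results was not tested.

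**Figure D5:**
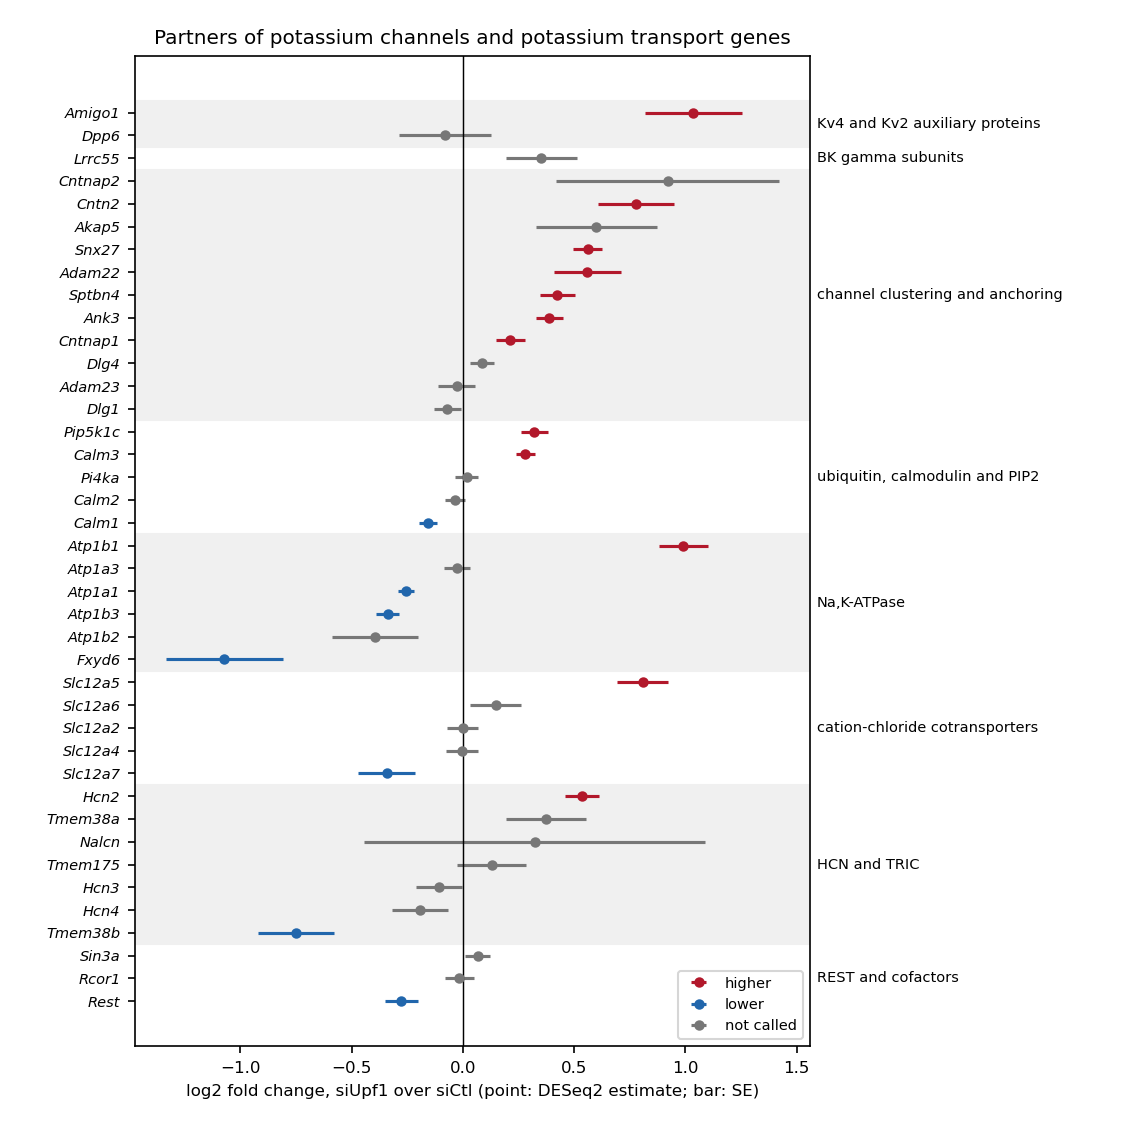
Log2 fold change of siUpf1 over siCtl for the 40 tested genes that act beside potassium channels, grouped by role; points are DESeq2 estimates and bars 1 SE, red for higher, blue for lower and gray for not called. Values run from −1.07 (Fxyd6) to 1.04 (Amigo1), and the clustering and anchoring group has 6 genes higher and none lower.

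Genes with the symbols of voltage-gated calcium and sodium channels (Cacn and Scn), chosen with the same sum of reads, offered the nearest comparison. The symbols also bring in Cacng3, Cacng4, Cacng7 and Cacng8, which encode partners of AMPA receptors. Cacng3, Cacng4 and Cacng7 were called higher and Cacng8 was not called. Of 21 such genes, 11 were higher, 3 lower and 7 not called, with a median log2 fold change of 0.31, beside 25.9% higher and 28% lower among all protein-coding genes with that sum. The 30 potassium channel genes had 14 higher, 5 lower, 11 not called and a median of 0.44, and the difference between the lists was not tested.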

How the data were processed

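RNA-seq libraries of N2A cells (2 siCtl, 3 siUpf1) were grouped by their labels. The authors mapped reads to GRCm38.p6 with STAR (2.7.0f) and deposited raw read counts per gene from featureCounts (Subread 1.6.4), counted by strand over exons, unnormalized and not pooled; per the labels' processing notes DESeq2 1.22.1 was also used. No column lacked a sample. From these counts, DESeq2 1.42.0 (R 4.3.3; Wald test, median-of-ratios size factors, independent filtering, Benjamini-Hochberg adjustment over all genes) compared siUpf1 with siCtl, as in the study's methods, and genes with an adjusted p under 0.05 were called. Normalized reads are counts divided by size factors. Alternatives were edgeR 4.0.16, TMM or total-count size factors, a minimum of 10 reads in 2 libraries, no independent filtering, shrunken fold changes, a replicate block and leaving out each library. The test was tried on simulated counts. Annotation here was GENCODE M21, not the release the authors counted on, and matched 99.8% of gene identifiers. Means are given with the S.D. between libraries, intervals are 95% Wald intervals, and PCR duplicates could not be recognized. The channel genes, gene lists and 7-mers were chosen with earlier results of these data known. A few channel genes count in the totals but are not reported here by name. Values in every library were given for called genes with an absolute log2 fold change of at least 0.5 and a mean of at least 100 normalized reads, for the highest gene of each family and at the threshold; other values were added after they were seen. Of the partner list, up to 4 called genes in each direction were named, and Rest in addition.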

Additional observations from a re-analysis of the deposited data

How the results depend on the processing

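The numbers of channel genes higher (14) and lower (5) were the same with TMM factors, total-count factors and a count minimum. Without independent filtering 3 were lower, Kcnj9 and Kcnk1 losing their calls. The replicate numbers gave no sign of pairing (correlation of same-numbered deviations −0.0340 and −0.0623 over 14818 genes). With 2 siCtl libraries the deviations of one mirror those of the other. The 2 correlations are thus not independent and cannot show that the libraries were unpaired. With the replicate number as a block, 6 channel genes were higher and 1 lower, 3 partner genes were lower, and 1957 genes of all tested were higher and 1962 lower. No siCtl library carries replicate number 2, so siUpf1 replicate 2 did not inform the comparison with the block. The smaller counts therefore do not measure an effect of pairing alone. The channel genes' median log2 fold change was 0.41 with the block and 0.31 with shrunken estimates, against 0.44. Leaving out each library gave 8 to 13 higher, 1 to 4 lower and a median of 0.36 to 0.47. Calls of 7 channel genes held in every alternative that makes calls, among them Kcnk3, Kcnj12, Kcnab1 and Kcnq5 higher and Kcnh4 lower. No call reversed. Kcna4 and Kcnh7, with few reads, had no adjusted p with the block or without siCtl replicate 3, and depth limits what can be said of them.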

Other observations

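Kcnq1ot1, a long noncoding RNA transcribed within Kcnq1 and outside the choice of protein-coding genes, had 673 and 595 normalized reads in siCtl libraries and 956, 876 and 1353 in siUpf1 libraries, or 0.74 higher on the log2 scale (SE 0.26, adjusted p = 0.0131 in DESeq2). Its host gene Kcnq1 had 5 raw reads over all libraries. The 4 other noncoding genes with Kcn symbols had few or no reads. Kcnmb4os2, named for Kcnmb4, had 12.6 and 20.8 against 27.6, 21.3 and 27.6 normalized reads and was not called (adjusted p = 0.350).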
